A study of Mus musculus with 6 samples.

Results

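The solute carriers (Slc genes) described here are 218 genes of 46 families, out of 379 Slc symbols among the 40202 genes in the deposited expression table. They were chosen by symbol and by level: the symbol starts with Slc and a digit, and the mean over all 6 libraries is at least 10 normalised reads. Transporters commonly tied to the stress factor ATF4 were set aside (the Slc7 and Slc38 families, Slc3a2, Slc1a4, Slc1a5, Slc6a9, Slc2a1 and Slc16a3), which removed 22 genes at that level. Another 128 Slc genes lay below a mean of 10, and 23 of those were listed at 0 in every library. The members just inside the limit were Slc26a8 with a mean of 10.3, Slc4a5 and Slc14a2 with 10.4 each, and Slc24a1 with 10.8. Just outside lay Slc13a4 at 8.50, Slc44a3 at 8.34, Slc6a19 at 8.08 and Slc17a8 at 7.95. The symbol rule also takes in Slc9a3r1 and Slc4a1ap, which encode a scaffold protein and an adaptor-like protein, not transporters.

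Total RNA was sequenced from BV2, a line of immortalised microglia from mice of C57BL/6 background. The 3 control libraries came from untreated cells. The 3 FL-ApoE4 libraries came from cells given human full-length apolipoprotein E4 protein at 25 µg/ml for 5 h. Both groups grew in RPMI 1640 with fetal bovine serum, nonessential amino acids and antibiotics, and the labels do not say whether the controls received a vehicle. The labels do not say that replicates were separate cultures, so p-values measure the spread between these samples only, which may be technical. BV2 cells are 1 line, and apolipoprotein E4, the variant tied to Alzheimer risk, was added from outside and was not made by the cells.

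Solute carriers are membrane proteins that move nutrients, ions, metals, vitamins and metabolites down a gradient or by coupling to one. The Slc25 family sits mainly in the inner mitochondrial membrane, the Slc35 family feeds nucleotide sugars into the Golgi and endoplasmic reticulum, and the Slc39 (ZIP) and Slc30 (ZnT) families bring zinc into the cytosol or take it out. Macrophages and microglia rely on such carriers to recycle iron from engulfed cells, to withhold metals from microbes in the phagosome, and to empty lysosomes of digestion products.

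Recovered read totals ran from 45700128 to 54965393 per library, so the depth differed little. All 10 microglial and macrophage markers checked were present, with a summed level of 196221 to 201055 in controls and 218058 to 225015 with FL-ApoE4. Of 7 neuronal markers 1 (Syt1) reached a mean of 10, as did 1 of 5 astrocyte markers (Slc1a2), 2 of 4 for oligodendrocytes, 2 of 4 for endothelium, 0 of 3 for fibroblasts and 0 of 2 for T cells. Aqp4, Slco1a4, Cd3e and Cd3g were listed at 0 in all libraries. Control replicate 1 stood apart: its summed level of 10 inflammatory activation genes was 251161, against 66034 and 64061 in control replicates 2 and 3 and 65134 to 72460 with FL-ApoE4. The similar sums hide genes that went both ways. Saa3 had 18477, 15540 and 14226 reads with FL-ApoE4 against 5798 and 6219 in control replicates 2 and 3. Tnf had 8727, 8247 and 8703 against 14765 and 13289. Lcn2, Acod1 and Ccl3 were also higher than in those controls, Nfkbiz, Nfkbia, Cxcl2 and Ptgs2 also lower, and Ccl4 overlapped. Control replicate 1 lay more than 0.5 log2 above the other controls in 25 solute carriers and below them in 13, or 17.4% of them, against 15.3% of all genes tested. Where leaving out that library turned a direction, ended or made a call, or moved a value by more than 1.5 times and more than 0.05, the value without it is given as well. FL-ApoE4 replicate 1 stood apart to a lesser degree, with a chi-square per gene of 21.4 and 19.94 against replicates 2 and 3 of its group, which differed from each other by 4.386.

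Levels differed widely between carriers. Substrate classes were assigned by family number, so a class can hold genes of another substrate or place. Scaled by exon length, the median solute carrier had 284 normalised reads per kilobase. The 10 highest genes held 41.4% of the summed level per kilobase. The 39 mitochondrial carriers held 37.5% of it, the 27 metal and heme carriers 20.6%, the 23 nucleotide sugar carriers 9.15% and the 38 inorganic ion carriers 7.29%. Highest of all was Slc25a5, an ADP/ATP carrier, at 19962 reads per kilobase, ahead of its paralog Slc25a4 at 10676. The heme transporter Slc48a1 followed at 6920, then the phagosomal metal transporter Slc11a1 (Nramp1) at 5753 and the mitochondrial phosphate carrier Slc25a3 at 5565. Next came Slc25a39, a mitochondrial glutathione importer, at 5329, the monocarboxylate transporter Slc16a1 (Mct1) at 4622, and Slc39a7, which releases zinc from the endoplasmic reticulum, at 4164. Exons of 59 members overlap an exon of another gene, and the labels do not give the strand setting of the counting, so reads of such pairs may be mixed. Among the members named in the text this touches Slc4a1ap, Slc1a2, Slc11a2, Slc15a3, Slc15a4, Slc16a9, Slc20a1, Slc25a11, Slc25a33, Slc25a37, Slc25a47, Slc26a10, Slc29a1, Slc30a1, Slc30a4, Slc35a4, Slc35f6, Slc37a1, Slc37a2, Slc39a7, Slc39a13, Slc44a1 and Slc48a1.

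**Figure D1:**
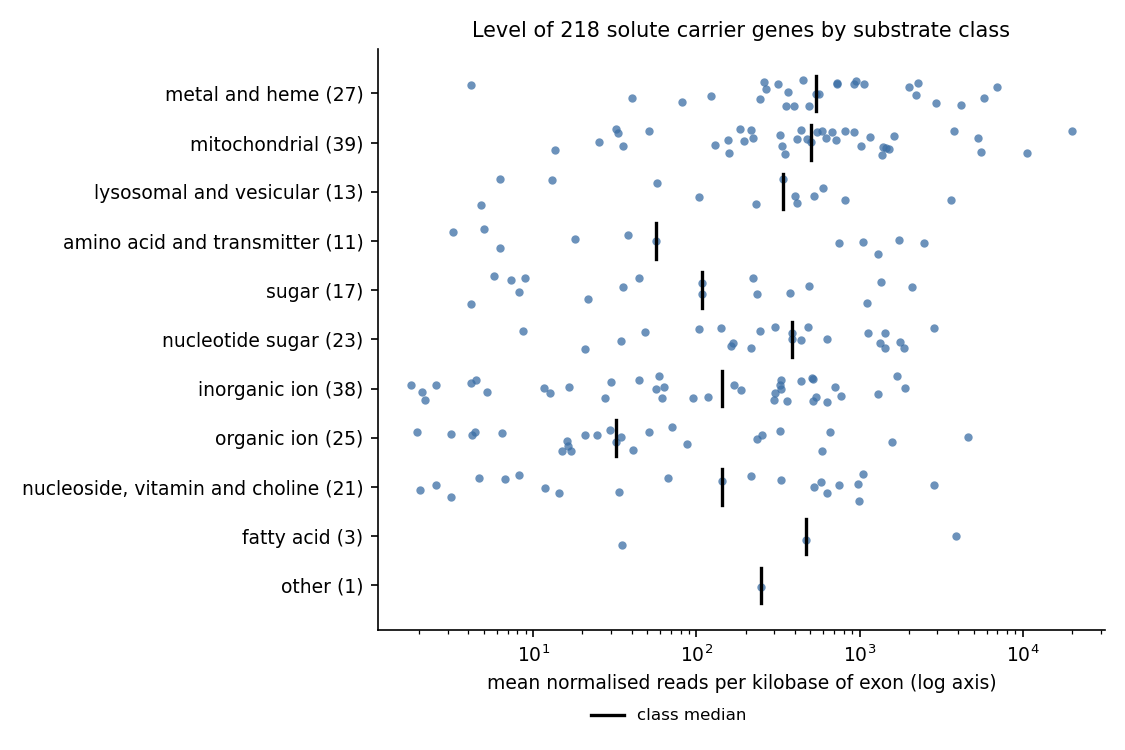
Mean level of each solute carrier over the 6 libraries, in normalised reads per kilobase of exon on a log axis, by substrate class; each point is 1 gene, the bar is the class median and the number of genes stands in brackets. Metal and heme carriers and mitochondrial carriers have the highest medians among the named classes, 540.0 and 504 reads per kilobase, and Slc25a5 is the rightmost point at 19962.

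The comparison asked whether full-length ApoE4 altered these transporters in BV2 cells. With all 6 libraries, no solute carrier passed limma's test at an adjusted p under 0.05: the count was 0 of 218, and 0 of all 14079 genes tested (0%). edgeR also called 0 members and 0 genes (0%). DESeq2 on the recovered reads called 5 of the 193 members with an adjusted p (2.59%), against 3.21% of all such genes. These 5 were Slc8b1, Slc15a4 and Slc25a45 on the higher side and Slc40a1 and Slc22a23 on the lower. The authors' deposited table called the same 5 members, 5 of 199 (2.51%), where 2.85% of all genes with an adjusted p in it were called. None of these shares exceeds that of all genes.

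Below that threshold the members were spread in both directions. At an unadjusted limma p under 0.05, 23 members were on the higher side with FL-ApoE4 (10.6%), against 6.81% of all genes, and 13 were on the lower side (5.96%), against 6.33%. Every FL-ApoE4 library lay above every control in 34 members (15.6%), against 11.1% of all genes, and below every control in 21 (9.63%), against 10.9%. The log2 difference, FL-ApoE4 minus control on the log2(value + 1) scale, ran from -0.93 to 1.09 over the members, with 124 positive and 94 negative. Its median was 0.03, and the median size regardless of sign was 0.12; over all genes these were 0.00 and 0.10. Single libraries moved the counts. The higher count was 15 without control replicate 3, 15 without FL-ApoE4 replicate 1, 10 without FL-ApoE4 replicate 2 and 11 without FL-ApoE4 replicate 3, and the lower count was 27 without control replicate 1, 8 without FL-ApoE4 replicate 2 and 8 without FL-ApoE4 replicate 3. The shares of all genes moved too, to between 3.92% and 10.0% on the higher side and between 3.93% and 8.95% on the lower side. The counts without overlap were 52 and 40 without control replicate 1 and 53 and 33 without FL-ApoE4 replicate 1, where fewer libraries make a gap easier, and the lower of them was 32 without FL-ApoE4 replicate 3. As shares these were 23.9% and 18.3% of members against 20% and 19.7% of all genes without control replicate 1, and 24.3% and 15.1% against 17.2% and 17.1% without FL-ApoE4 replicate 1. Without FL-ApoE4 replicate 3 the lower share was 14.7% against 15.1%.

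**Figure D2:**
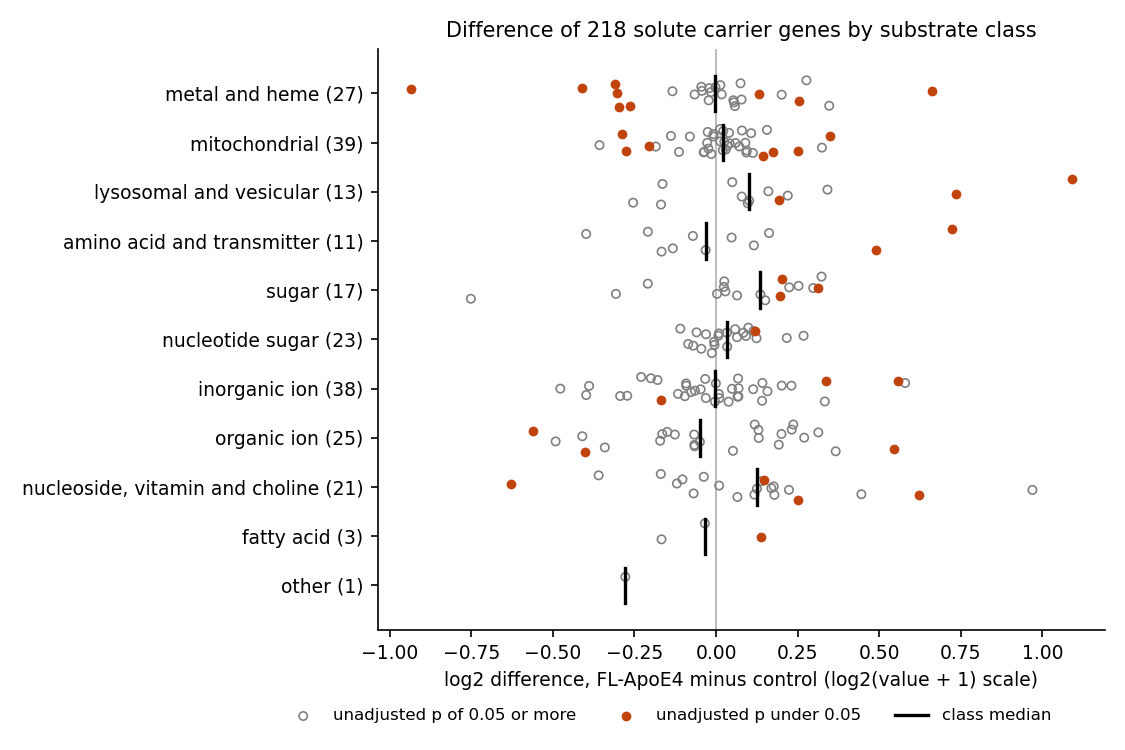
Log2 difference of each solute carrier, FL-ApoE4 minus control on the log2(value + 1) scale, by substrate class; each point is 1 gene, filled where limma's unadjusted p is under 0.05, and the bar is the class median. The points run from -0.93 (Slc39a12) to 1.09 (Slc36a3), the metal and heme class has filled points on both sides, and the lysosomal and sugar classes have them on the higher side. Classes follow family number.

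In the metal and heme class, genes for zinc and iron carriers sat at both ends. Of its 27 genes, 3 had an unadjusted limma p under 0.05 on the higher side and 6 on the lower side, with a class median of 0.00. Over all genes 6.81% were on the higher and 6.33% on the lower side, the shares to set beside each such class and list count below. No gene of the class passed after adjustment with all 6 libraries. Without control replicate 1, limma called 5 of the 27 higher and 0 lower, against 2.93% and 1.69% of all genes. In bulk RNA, a difference in the number of cells of a type and one in RNA per cell cannot be told apart, here and below.

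Several metal exporters and importers had lower values with FL-ApoE4. Slc40a1, ferroportin and the only known iron exporter of mammalian cells, had 7685, 7463 and 6614 normalised reads in the controls (replicates 1, 2 and 3, the order kept for both groups throughout) and 5674, 5672 and 6286 with FL-ApoE4. The groups did not overlap, although control replicate 3 and FL-ApoE4 replicate 3 came close. This was a log2 difference of -0.30 ± 0.07 (SE), with an adjusted p of 0.189 by limma and 0.0274 by DESeq2. The zinc exporter of the plasma membrane, Slc30a1, had 4991, 3906 and 3717 reads in controls and 3252, 3194 and 3676 with FL-ApoE4. Control replicate 1 was the highest, and the gap between control replicate 3 and FL-ApoE4 replicate 3 was small. Its log2 difference was -0.31 ± 0.12, and -0.18 without control replicate 1. Slc30a4, which loads zinc into endosomes, had 3211, 2789.5 and 2801 reads in controls and 2209.8, 2529.9 and 2586 with FL-ApoE4 (log2 difference -0.27 ± 0.09). All FL-ApoE4 libraries lay below the controls. Of the 6 Slc30 genes above the limit 5 had a negative difference, 2 of them at an unadjusted p under 0.05, and the family median was -0.09, or -0.04 without control replicate 1.

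The importer Slc39a14 (ZIP14), which carries zinc, manganese and non-transferrin iron, had 5438, 3834 and 3859.5 reads in controls and 3051, 3254 and 3450.4 with FL-ApoE4. The groups did not overlap and control replicate 1 was the farthest out. The log2 difference was -0.41 ± 0.14 with an adjusted limma p of 0.266, and -0.24 without control replicate 1. Slc41a1, a magnesium transporter, had 1411, 1454 and 1487 reads in controls and 995, 1295 and 1277 with FL-ApoE4. Its lowest value was FL-ApoE4 replicate 1, and the log2 difference of -0.30 ± 0.11 was -0.17 without that library. The most negative log2 difference of all members, -0.93 ± 0.28, belonged to Slc39a12, a zinc importer best known from the brain, at 16.3, 17.1 and 16 reads in controls and 6.69, 7.42 and 10.8 with FL-ApoE4. It stood close to the level limit, so each value rests on few reads.

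On the higher side of the same class stood other ZIP genes. Slc39a4, the intestinal-type zinc importer that is mutated in acrodermatitis enteropathica, had 263, 165 and 165 reads in controls and 298, 300.4 and 319 with FL-ApoE4. Control replicate 1 was nearer to the treated libraries than to the other controls, yet the groups did not overlap. The log2 difference was 0.66 ± 0.18 (limma adjusted p = 0.217), and 0.89 ± 0.10 without control replicate 1 (limma adjusted p = 0.00226). Slc39a13 (ZIP13), a zinc transporter of intracellular membranes, had 2564, 2381 and 2259.5 reads in controls and 2891, 2930.4 and 2754 with FL-ApoE4. All treated libraries were above all controls, with a log2 difference of 0.25 ± 0.06. Slc11a1, which pumps iron and manganese out of the phagosome, had 20696, 19228 and 21092 reads in controls and 21579.6, 22239 and 23056 with FL-ApoE4. The groups were separate by a narrow gap and the log2 difference was small, at 0.13 ± 0.05. The 12 Slc39 genes divided evenly, 6 with positive and 6 with negative differences, and 8 and 4 without control replicate 1.

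The most abundant member of the class, the heme transporter Slc48a1, had 22687, 18202 and 17701 reads in controls and 18591, 18141 and 18906 with FL-ApoE4. Only control replicate 1 was apart, the groups overlapped, and the log2 difference of -0.07 ± 0.09 was 0.05 without that library. Metal handling genes outside the Slc families were read from a list of 12, of which 11 were tested. The list gave 0 genes on the higher side and 1 on the lower side at an unadjusted p under 0.05, with a median of -0.02, or -0.06 without control replicate 1. The 1 gene was Hmox1, the heme-degrading oxygenase, at 173807, 114731 and 95745 reads in controls and 70386, 69084 and 89015 with FL-ApoE4. The groups were separate and control replicate 1 was by far the highest (log2 difference -0.71 ± 0.21, limma adjusted p = 0.228), and without it the difference was -0.47. The metallothioneins Mt1 and Mt2, which bind zinc and are induced by it, had log2 differences of -0.04 ± 0.06 and -0.12 ± 0.05.

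**Figure D3:**
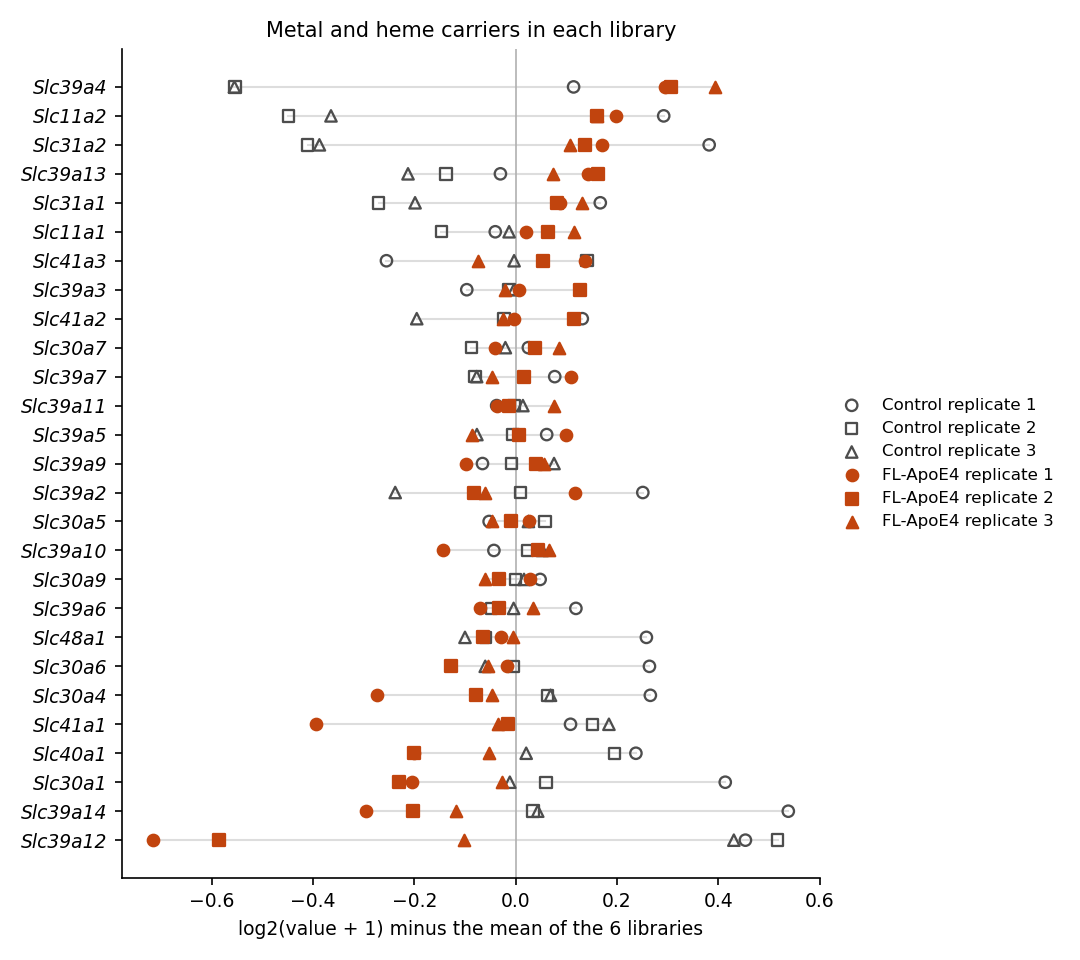
The 27 metal and heme carriers in each library, as log2(value + 1) minus the mean of the 6 libraries; open symbols are controls, filled symbols FL-ApoE4, with circle, square and triangle for replicates 1, 2 and 3, and genes ordered by their log2 difference. Slc39a4 at the top (0.66) and Slc39a12, Slc39a14, Slc30a1 and Slc40a1 at the bottom (-0.93, -0.41, -0.31 and -0.30) have separate groups, and the open circle of control replicate 1 lies far from the other controls in Slc11a2, Slc31a2, Slc48a1 and Slc39a14.

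Zinc-dependent genes are switched on by the factor MTF1 through metal response elements, and Slc30a1 is a classical target. The promoter windows of the zinc exporters Slc30a1 and Slc30a4 are shown with the matches to that element's core. They run from 250 bases before to 50 after the annotated start, are credited to RefSeq (GRCm38.p6) and read 5′ to 3′ on the gene's strand, from chr1:191906531-191906830 (plus strand) and chr2:122702614-122702913 (minus strand). Capitals mark the core, TGCACNC or TGCGCNC searched on both strands, with 2 matches for Slc30a1 and 3 for Slc30a4.
Slc30a1: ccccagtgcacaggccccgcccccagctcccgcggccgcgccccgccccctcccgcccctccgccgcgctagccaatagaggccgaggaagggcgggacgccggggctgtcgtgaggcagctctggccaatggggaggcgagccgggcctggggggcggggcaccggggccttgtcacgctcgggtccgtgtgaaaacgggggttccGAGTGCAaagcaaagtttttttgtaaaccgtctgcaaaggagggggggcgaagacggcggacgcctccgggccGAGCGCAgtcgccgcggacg
Slc30a4: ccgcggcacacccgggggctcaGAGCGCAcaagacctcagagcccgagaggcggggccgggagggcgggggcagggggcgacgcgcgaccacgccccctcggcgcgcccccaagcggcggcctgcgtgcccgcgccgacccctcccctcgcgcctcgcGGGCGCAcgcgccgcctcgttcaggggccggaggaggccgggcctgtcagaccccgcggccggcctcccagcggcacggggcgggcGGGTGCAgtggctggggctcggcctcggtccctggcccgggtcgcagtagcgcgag

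The core occurred in 25.7% of all 32851 RefSeq promoter windows and in 36.4% of the windows of members (80 of 220, from 168 genes that matched by symbol), and 3 or more copies were found in 1.97% of all windows. Mt1 held 3 matches and Mt2 held 4. Other named carriers with several matches were Slc16a9 with 4 and Slc37a4, Slc25a11 and Slc29a1 with 2 each, all with positive log2 differences, so copies of the core stood beside differences of either sign. Other motifs were searched in the same way. The E-box CACGTG, bound by TFEB and MYC family factors among others, was in 7.15% of all windows and 12.3% of member windows. The antioxidant response element TGACNNNGC was in 12.4% and 16.4%, the interferon response core GAAANNGAA in 8.56% and 5.45%, and the cyclic AMP element TGACGTCA in 1.79% and 1.36%. A match is a description of the letters in the window and does not show binding.

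The most abundant mitochondrial carriers, the ADP/ATP carriers Slc25a5 and Slc25a4, differed by less than the spread between replicates. Of 39 Slc25 genes, 4 had an unadjusted limma p under 0.05 on the higher side and 3 on the lower, and the median log2 difference was 0.02. Slc25a5 had 33843, 32456 and 33043 reads in controls and 34426, 31232 and 32144 with FL-ApoE4 (log2 difference -0.02 ± 0.05). The groups overlapped. Slc25a4, Slc25a3 and Slc25a39 had log2 differences of 0.02, -0.03 and -0.01, and Slc25a3 was 0.005 without control replicate 1.

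The mitochondrial carriers with the lowest p values were less abundant ones. Slc25a45, a carrier of the inner mitochondrial membrane, had 1931, 2382 and 2435 reads in controls and 2837, 2957 and 2759 with FL-ApoE4. All treated libraries were above all controls, of which replicate 1 was the lowest. The log2 difference was 0.35 ± 0.09 with an adjusted p of 0.205 by limma and 0.0448 by DESeq2. Slc25a38, the glycine carrier needed for heme synthesis, had 1045, 1046 and 1011 reads in controls and 1263, 1259.9 and 1171 with FL-ApoE4. These groups were well apart for a log2 difference of 0.25 ± 0.06 (limma adjusted p = 0.19). Slc25a24, an ATP-magnesium/phosphate carrier, and Slc25a11, the oxoglutarate carrier, had log2 differences of 0.17 ± 0.06 and 0.14 ± 0.06.

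On the lower side stood Slc25a37 (mitoferrin 1), which brings iron into mitochondria, at 4360.4, 3322 and 3309 reads in controls and 2845, 3025 and 3068 with FL-ApoE4. The groups were separate and control replicate 1 was the farthest out; the log2 difference was -0.29 ± 0.11, and -0.16 without that library. Slc25a33, a pyrimidine nucleotide carrier, had a log2 difference of -0.28 ± 0.10, and -0.17 without control replicate 1. Slc25a14, an uncoupling protein homolog, had 329, 324 and 340.2 reads in controls and 273, 287 and 301 with FL-ApoE4 (log2 difference -0.21 ± 0.08), with no overlap.

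The member with the smallest limma p was Slc8b1, the mitochondrial sodium/calcium/lithium exchanger (NCLX), which lets calcium out of the matrix. It had 1553, 1495 and 1623 reads in controls and 1933, 1963 and 1996 with FL-ApoE4, or 1557 ± 64.0 and 1964 ± 31.4 (mean ± SD, n = 3). The treated libraries were tightly grouped above all controls, and control replicate 1 lay between the other controls. This gave a log2 difference of 0.34 ± 0.06, with an adjusted p of 0.112 by limma and 0.000899 by DESeq2. The limma value was 0.33 without control replicate 1 (adjusted p = 0.0182), and between 0.31 and 0.37 when any 1 library was left out. The other inorganic ion carriers held few such genes: of 38 in the class 2 were on the higher and 1 on the lower side at an unadjusted p under 0.05, with a median of 0.00. Slc20a1, a sodium-phosphate importer and the most abundant of them per kilobase, had 12167, 10641 and 10797 reads in controls and 9784, 10059 and 10023 with FL-ApoE4 (log2 difference -0.17 ± 0.06). It was lower in all treated libraries, and the difference was -0.11 without control replicate 1. Slc26a10, a member of the anion exchanger family, had 88.0, 67.3 and 117 reads in controls and 119, 137 and 136 with FL-ApoE4, which just cleared the highest control (log2 difference 0.56 ± 0.20). Without control replicate 2 it was 0.36. All 5 Slc26 genes had positive differences with 6 libraries, but 3 of 5 without control replicate 1, where the family median of 0.07 became 0.01 and Slc26a11 stood at -0.31.

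The lysosomal and vesicular class was set by family number, so not every gene in it need be lysosomal or vesicular. Of its 13 genes, 10 had a positive log2 difference, with a median of 0.10. An unadjusted limma p under 0.05 was reached by 3, all higher: Slc15a4, and Slc36a2 and Slc36a3, whose means were only 42.2 and 11.3 reads. Slc15a4, a lysosomal histidine and peptide transporter needed for endosomal Toll-like receptor signalling, had 4045, 4031 and 4081 reads in controls and 4679.6, 4582 and 4649 with FL-ApoE4. Replicates within each group were nearly equal and the groups were far apart relative to that spread. They differed by 0.19 ± 0.04 on the log2 scale, with an adjusted p of 0.168 by limma and 0.0356 by DESeq2.

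The proton-coupled amino acid transporters of the Slc36 family all had positive differences, in 4 of 4 genes, with a median of 0.54, or 0.30 without control replicate 1. Slc36a4 had the smallest difference of the family, 0.08, with overlapping groups. Slc36a3, Slc36a2 and Slc36a1 follow one another in the RefSeq order of protein-coding genes, the gene order used here and below. Slc36a1 (PAT1), which exports amino acids from lysosomes, had 1317, 1832 and 1947 reads in controls and 1918, 2210.1 and 2255 with FL-ApoE4. The groups overlapped, since control replicate 3 was above FL-ApoE4 replicate 1, and control replicate 1 was low. The log2 difference was 0.34 ± 0.15, and 0.17 without control replicate 1. Slc36a2 had 19.5, 42.7 and 34.9 reads in controls and 48, 56.5 and 51.9 with FL-ApoE4 (log2 difference 0.74 ± 0.29, and 0.42 without control replicate 1), and Slc36a3 had 8.69, 5.69 and 5.65 against 11.2, 13 and 23.5 (1.09 ± 0.37). Neither overlapped, but both were at few reads, and the adjusted limma p was 0.339 and 0.274. Proton pump and sodium pump genes that make the gradients gave 1 of 19 on the higher side at an unadjusted p under 0.05, the proton pump subunit Tcirg1 at 0.18 ± 0.06, with a list median of 0.02.

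**Figure D4:**
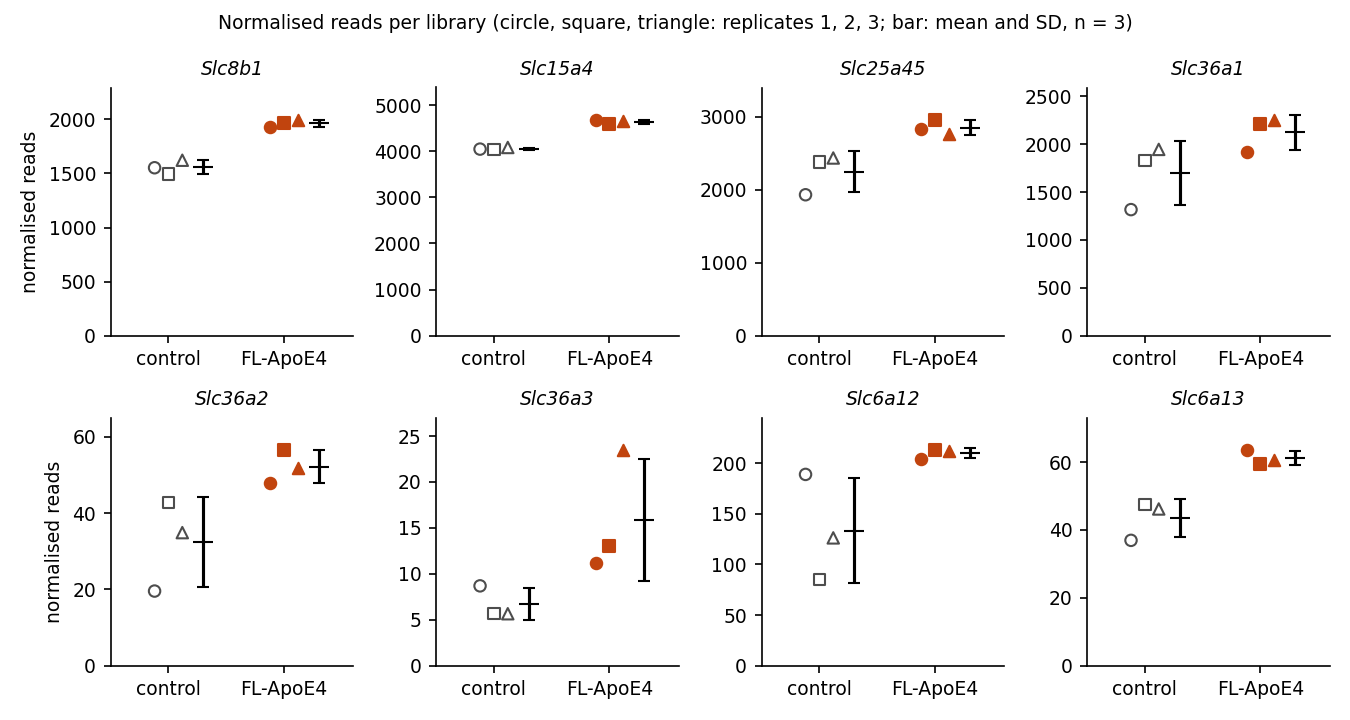
Normalised reads of 8 solute carriers in each library, with linear axes from 0; open symbols are controls, filled symbols FL-ApoE4, and the bars give the mean ± SD (n = 3). Slc8b1 and Slc15a4 have tight, separate groups, Slc36a1 overlaps, and Slc36a2, Slc36a3, Slc6a12 and Slc6a13 are separate at levels of about 6 to 213 reads.

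Among amino acid and transmitter carriers, a neighbouring pair of Slc6 genes had the highest differences. The class had 11 genes, 2 on the higher and 0 on the lower side at an unadjusted limma p under 0.05, and a median of -0.03. Slc6a12 (BGT1), a betaine and GABA transporter, had 189, 85.4 and 126 reads in controls and 204, 213 and 212 with FL-ApoE4. The treated libraries were tight, and control replicate 1 came close to them. Its log2 difference was 0.72 ± 0.26, with 1.01 without control replicate 1 and 0.44 without control replicate 2. Slc6a13 (GAT2), next to it in the gene order, had 36.9, 47.4 and 46.2 reads in controls and 63.6, 59.3 and 60.7 with FL-ApoE4 (log2 difference 0.49 ± 0.16). Here too all treated libraries were above all controls. Not all neighbouring members shared a sign. Opposite signs were found in Slc16a11 and Slc16a13 (-0.13 and 0.13) and in Slc25a29 and Slc25a47 (0.09 and -0.18). With all 6 libraries the same held for Slc14a1 and Slc14a2 (0.45 and -0.17), but Slc14a2, at a mean of 10.4 reads, was 0.17 without control replicate 1. Slc25a43 and Slc25a5 (0.11 and -0.02) were 0.06 and -0.01 without that library. Slc43a3, a purine base transporter and the most abundant of the class per kilobase, had a log2 difference of -0.03 ± 0.08, with overlapping groups, and of 0.05 without control replicate 1.

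Sugar carriers, classed by family number, had 14 of 17 positive differences and a median of 0.14. Without control replicate 1 these were 10 of 17 and 0.05. At an unadjusted limma p under 0.05 there were 3 on the higher and 0 on the lower side. Slc45a4, placed by family with the proton-coupled sugar carriers, had 1516, 1806 and 1732 reads in controls and 1954, 2271 and 2041 with FL-ApoE4. All treated libraries exceeded all controls, for a log2 difference of 0.31 ± 0.09 (limma adjusted p = 0.222). Slc37a4, the glucose-6-phosphate transporter of the endoplasmic reticulum, had 897, 1040.5 and 1051 reads in controls and 1172, 1143 and 1100.2 with FL-ApoE4 (0.20 ± 0.08), and was 0.12 without control replicate 1. Its relative Slc37a1 had a log2 difference of 0.20 ± 0.08.

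Organic ion carriers were mostly at low levels, with a class median of 32 reads per kilobase. Slc16a1, which moves lactate and pyruvate, was the most abundant of the class per kilobase and had 20581, 20246 and 21591 reads in controls and 21119, 19357 and 19854 with FL-ApoE4. The groups overlapped, with a log2 difference of -0.05 ± 0.05. Its relative Slc16a9 had 64.1, 58.8 and 38.6 reads in controls and 90.4, 71.4 and 71.5 with FL-ApoE4, with no overlap (0.55 ± 0.22, and 0.33 without control replicate 3).

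In the Slc22 family 6 of 8 genes were negative, with a median of -0.26, but 4 of 8 without control replicate 1, with a median of -0.09. Slc22a23, an orphan organic ion transporter, had 236, 240.0 and 199.8 reads in controls and 133, 160.4 and 164 with FL-ApoE4. The groups were well separated and each treated library was below each control. They differed by -0.56 ± 0.13 on the log2 scale, with an adjusted p of 0.174 by limma and 0.0329 by DESeq2. Slc22a21, a carnitine transporter, had 356, 372 and 355 reads in controls and 219, 304 and 305 with FL-ApoE4; the log2 difference of -0.40 ± 0.14 was -0.24 without FL-ApoE4 replicate 1. Its neighbours in the gene order, Slc22a5 and Slc22a4, had differences of -0.07 and -0.17, both above an unadjusted p of 0.05, and 0.00 and 0.03 without control replicate 1.

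Nucleoside, vitamin and choline carriers had 14 of 21 positive differences, with a median of 0.13, and 3 on the higher and 1 on the lower side at an unadjusted limma p under 0.05. Slc44a2, a choline transporter, had 7799.8, 8083 and 8233 reads in controls and 8963, 9042 and 8702 with FL-ApoE4, without overlap (log2 difference 0.15 ± 0.05). The proton-coupled folate transporter Slc46a1 had 173, 201 and 190.3 reads in controls and 216, 229.9 and 224 with FL-ApoE4, again without overlap (0.25 ± 0.10). The nucleoside transporter Slc28a2 had 163, 86.3 and 88.6 reads in controls and 146, 198 and 159 with FL-ApoE4, where control replicate 1 lay among the treated values (0.62 ± 0.26). Reads of Slc28a2 and of its adjacent, closely related copy Slc28a2b (0.97) may be shared, so both are uncertain. Slc28a1 was the gene on the lower side, at 29.3, 28.5 and 30.2 reads in controls and 24.5, 15.8 and 16.6 with FL-ApoE4 (-0.63 ± 0.24). Slc29a1, the equilibrative nucleoside transporter and the most abundant of the class per kilobase, had a log2 difference of 0.07 ± 0.05. The lysosomal nucleoside transporter Slc29a3 had 2020.0, 3675 and 3799 reads in controls and 3065, 3676 and 3985 with FL-ApoE4, with overlapping groups; its log2 difference of 0.22 ± 0.24 was -0.07 without control replicate 1.

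Nucleotide sugar carriers had small differences. Of 23 Slc35 genes 1 had an unadjusted limma p under 0.05, Slc35f6 at 3421, 3601 and 3641 reads in controls and 3879.8, 3793 and 3897 with FL-ApoE4, which left a small gap between groups (log2 difference 0.12 ± 0.05). The median size of the difference in this class was 0.06, against 0.12 over all solute carriers. The most abundant per kilobase, Slc35a4, had a log2 difference of 0.03 ± 0.05. Among 3 fatty acid carriers, Slc27a1 (FATP1), which couples uptake of long-chain fatty acids to their activation, had 20438, 22417 and 21859.5 reads in controls and 23429, 23558 and 24198 with FL-ApoE4. All treated libraries lay above all controls, with a log2 difference of 0.14 ± 0.05. Slc49a4, the single gene outside these classes, had 2192, 1195 and 1094 reads in controls and 1239, 1159 and 1119 with FL-ApoE4. Only control replicate 1 differed, and the log2 difference of -0.28 ± 0.24 was 0.03 without it.

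Leaving out control replicate 1 changed which solute carriers passed the test. With control replicates 2 and 3 against the 3 FL-ApoE4 libraries, limma called 15 members at an adjusted p under 0.05. Of these 12 rose (5.5% of members, against 2.93% of all genes) and 3 fell (1.38%, against 1.69%). edgeR and DESeq2 on the same 5 libraries also called all 15. edgeR called 6.88% of members in that fit, against 4.91% of all genes, and DESeq2 10.6% of members with an adjusted p, against 7.54% of all such genes. Control replicates 2 and 3 were the most alike pair of controls, with a chi-square per gene of 4.852 against 64.07 and 71.9 for the pairs with replicate 1, so this fit may understate the spread between controls.

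Of the 12 that rose, 5 were metal carriers (Slc11a2, Slc31a1, Slc31a2, Slc39a4 and Slc39a13), out of 27 in that class, where 2.93% of all genes were called higher. Slc11a2 (DMT1), which takes up ferrous iron, had 16889, 10108 and 10714 reads in controls and 15829, 15416 and 15419.8 with FL-ApoE4. Control replicate 1 was the highest of all libraries, and without it the log2 difference was 0.58 ± 0.05 (limma adjusted p = 0.000841), against 0.35 ± 0.18 with it. The copper importer Slc31a1 (CTR1) had 9562, 7061 and 7422 reads in controls and 9056, 9016 and 9326 with FL-ApoE4. Its endosomal relative Slc31a2 (CTR2) had 5886, 3398 and 3453 against 5086, 4967 and 4866. In both genes control replicate 1 exceeded every treated library, and the log2 differences without it were 0.34 ± 0.05 (limma adjusted p = 0.00674) and 0.54 ± 0.05 (0.00135), against 0.20 and 0.28 with it.

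Slc15a3 and Slc2a6, carriers known from inflammatory macrophages, were also called higher. Slc15a3, a lysosomal peptide transporter, had 25839, 14931 and 15635 reads in controls and 21269.5, 21292 and 21041 with FL-ApoE4. Slc2a6, a lysosomal hexose transporter, had 9559, 4714 and 4778 reads in controls and 7443, 7126 and 6472 with FL-ApoE4. Both were highest in control replicate 1 and lowest in the other controls, and their log2 differences without it were 0.47 ± 0.04 (limma adjusted p = 0.00144) and 0.56 ± 0.06 (0.00269), against 0.22 and 0.22 with it. The choline transporter Slc44a1, Slc28a2 and Slc6a12 rose as well, by log2 differences of 0.41, 0.92 and 1.01 (limma adjusted p = 0.00537, 0.0132 and 0.0118), against 0.18, 0.62 and 0.72 with all libraries. The remaining genes called higher were Slc39a4, Slc39a13, Slc8b1 and Slc25a45, at 0.89, 0.30, 0.33 and 0.24.

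The 3 that fell in that fit were also far from the other controls in control replicate 1. Slc37a2, a phosphate-linked glucose-6-phosphate transporter abundant in macrophages, had 6148, 9668 and 8724 reads in controls and 6068, 6511 and 6933 with FL-ApoE4 (log2 difference -0.50 ± 0.07, limma adjusted p = 0.00598). Slc17a5 (sialin), which exports sialic acid from lysosomes, had 1247, 1758 and 1763 reads in controls and 1361, 1388 and 1441 with FL-ApoE4 (-0.33 ± 0.06). Slc6a17, a vesicular neutral amino acid transporter, had 6333, 9456 and 9062 reads in controls and 6241, 7423 and 7586 with FL-ApoE4 (-0.39 ± 0.08). With all 6 libraries these 3 differences were -0.31, -0.17 and -0.21. In each gene control replicate 1 lay within or below the treated values. Over the 15 genes, the groups overlapped in 10 when all 6 libraries were kept and did not in 5, and 6 had an unadjusted p under 0.05 with all 6 libraries. The part of the inflammatory state of control replicate 1 in these differences was not tested.

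**Figure D5:**
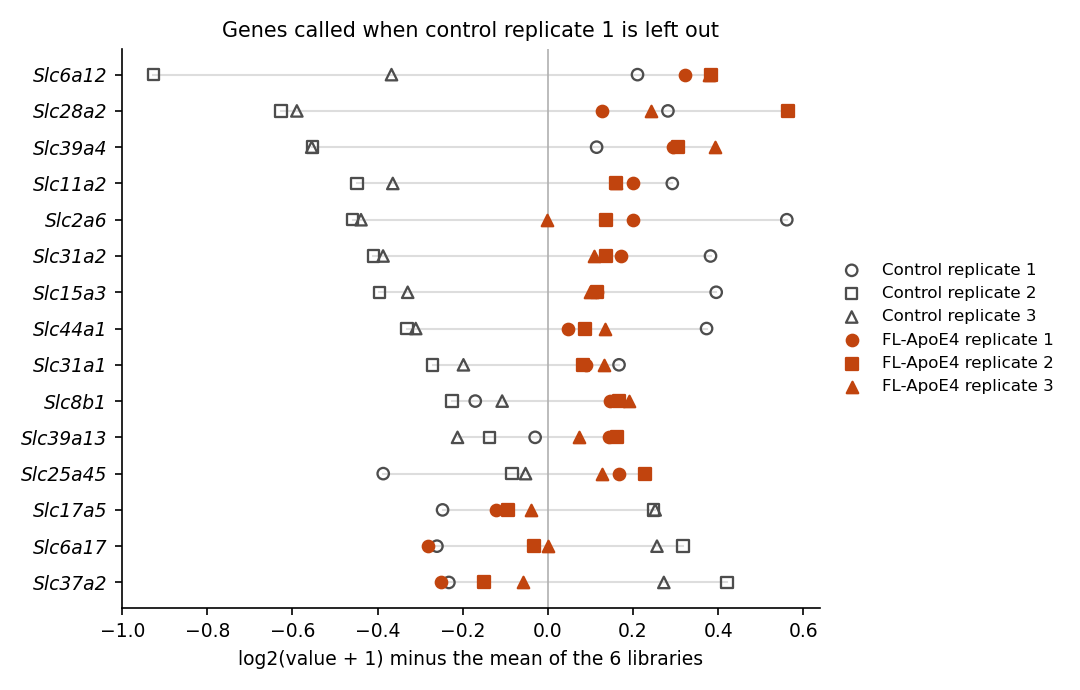
The 15 solute carriers called without control replicate 1, in each library, as log2(value + 1) minus the mean of the 6 libraries; open symbols are controls, filled symbols FL-ApoE4, with circle, square and triangle for replicates 1, 2 and 3. The open circle of control replicate 1 lies with or beyond the filled symbols in 10 genes, such as Slc11a2, Slc31a2, Slc2a6, Slc15a3 and Slc37a2, while Slc8b1, Slc39a13 and Slc25a45 have separate groups.

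The 22 genes set aside by symbol differed from the members in the direction of their values. They had 1 gene on the higher and 7 on the lower side at an unadjusted limma p under 0.05, against 6.81% and 6.33% of all genes. Their median log2 difference was -0.17, against 0.03 for the members, and was -0.05 without control replicate 1. The difference between these lists was not tested. The authors' deposited table called 4 of them lower, Slc1a4 at -0.44, Slc6a9 at -0.34, Slc7a1 at -0.32 and Slc7a5 at -0.21 on the log2 scale.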

How the data were processed

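Total RNA libraries (directional kit, per the labels) of BV2 cells were compared, 3 untreated and 3 given FL-ApoE4. Per the submitters' processing notes, the tools were DESeq2 1.30.1, HTSeq, HISAT2 2.2.1 and FastQC 0.11.8 and the build GRCm39, with no settings named. The deposited signal values are gene reads divided by a size factor; 100% of values were whole multiples of 1 read within 0.01, so whole reads were recovered. The authors' deposited log2 fold changes and their deposited p-values were used only where named, and 27305 genes had no adjusted p there. Genes with a mean of at least 10 were tested on log2(value + 1) with limma 3.58.1 (trend, two-sided, Benjamini-Hochberg over all 14079 genes, threshold 0.05) in R 4.3.3; ± after a log2 difference is the SE. edgeR 4.0.16 (quasi-likelihood, TMM) and DESeq2 1.42.0 were run on recovered reads. The fits were also run on simulated reads with the same relative spread for every gene and no library set apart. That differs from these controls, so the simulation does not measure what could be missed here. Library totals were 45700128 to 54965393 reads, and the SE comes from the spread between libraries. Lengths are union exons of GENCODE's GRCm38 annotation, matched by symbol for 218 of 218 members, for level per kilobase only. Members, substrate classes and lists were chosen with earlier results of these data known. Named genes are the 10 members of lowest p in each direction, the most abundant and lowest-p gene of each class, macrophage carriers, members at the level limit and those in the authors' tables; members called without control replicate 1, others at an unadjusted p under 0.05, further abundant genes and gene neighbours were added after their values were seen. Alternatives were other pseudocounts (0.5, 5), filters (none, 50), scalings, variance settings, leaving out each library in turn and a replicate block; edgeR and DESeq2 without control replicate 1 were added after seeing the data.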

Additional observations from a re-analysis of the deposited data

How the results depend on the processing

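Over 54 named genes and 1076 combinations of gene and setting, 1005 kept their direction and side of the threshold, 55 passed it where they had not before, and 16 turned sign in 5 genes. Slc43a3 was 0.00573 by quantile normalisation, -0.0718 to 0.0470 with 1 library left out, and 0.0517 by edgeR and 0.0460 by DESeq2 without control replicate 1. Without that library edgeR and DESeq2 gave 0.0504 and 0.0445 for Slc48a1, 0.0372 and 0.0313 for Slc49a4, and -0.0600 and -0.0659 for Slc29a3. With 1 library left out these 3 genes ranged from -0.132 to 0.0469, -0.466 to 0.0347 and -0.0722 to 0.383. Slc25a5 was 0.0276 by quantile normalisation and -0.0634 to 0.0068 with 1 library left out. Scaling to equal totals moved the median over solute carriers to 0.0421 and that of all genes to 0.0161. DESeq2 called 5 members. Without control replicate 1, edgeR called 15 (all genes, 4.91%) and DESeq2 21 (all genes, 7.54%). The lower count at an unadjusted p under 0.05 was 26 by edgeR (all genes, 8.77%) and 24 by DESeq2 (8.09%). With 1 library left out, calls ranged from 0 to 15 and the median from 0.0143 to 0.0350. The higher count ran from 10 to 27 (all genes, 3.92% to 10.0%) and the lower from 8 to 27 (3.93% to 8.95%). Members without overlap ran from 41 to 53 (higher) and 24 to 40 (lower), against 13.6% to 20% and 13.1% to 19.7% of all genes. The replicate numbers did not pair the samples (correlations of deviations 0.132, 0.068 and -0.026). With a replicate block 0 members were called, with 25 higher and 17 lower at an unadjusted p under 0.05, against 7.75% and 7.71% of all genes. The cause of these shifts was not tested beyond the libraries named. With 3 libraries a group, differences near the spread between replicates may be missed, and carriers of few reads (Slc36a3, Slc39a12, Slc28a2b) are limited by counting error.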

Other observations

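Of 20 solute carriers without an Slc symbol, 2 were higher and 1 lower at an unadjusted limma p under 0.05, with a median log2 difference of 0.01. Spns2, which exports sphingosine 1-phosphate, had 176, 168 and 183 normalised reads in controls and 239.8, 245 and 222 with FL-ApoE4, with no overlap (log2 difference 0.42 ± 0.10, limma adjusted p = 0.171). Slco4a1, an organic anion transporter, had 5530.0, 2882 and 3118 reads in controls and 2338, 2243 and 2508 with FL-ApoE4. Control replicate 1 was the highest by far, and the log2 difference of -0.64 ± 0.22 was -0.34 without it (limma adjusted p = 0.024).

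Of 33 ABC transporters, 20 had a positive and 13 a negative log2 difference, with a median of 0.02, and 14 and 19 without control replicate 1, with a median of -0.06. The groups did not overlap in 4 of the 33 on the higher and 4 on the lower side, against 11.1% and 10.9% of all genes. The cholesterol exporter Abcg1 had 2646, 3815 and 3789.8 reads in controls and 4986, 5085 and 4719 with FL-ApoE4. All treated libraries were above all controls, with a log2 difference of 0.55 ± 0.14. Its limma adjusted p was 0.191, and 0.00634 once control replicate 1 was left out (0.37 ± 0.05). Abca1, which also exports cholesterol, had 7848, 8212 and 8603 reads in controls and 5528, 7812 and 7837 with FL-ApoE4. Here all treated libraries were below all controls, with replicate 1 the farthest out (log2 difference -0.24 ± 0.13, limma adjusted p = 0.499). The ABC genes were named after their values were seen.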
